A study of Mus musculus with 8 samples.

Results

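The genes that encode Wnt ligands, their receptors and co-receptors, the secreted proteins that block or amplify them, the Axin scaffolds and the transcription factors Tcf7 and Lef1 were described in cultured mouse bone marrow stromal cells with and without Id1. Members were chosen by gene name (Wnt, Fzd, Sfrp, Dkk, Rspo and Lgr4 to Lgr6 families, Lrp5, Lrp6, Axin1, Axin2, Ror1, Ror2, Wif1, Tcf7 and Lef1), which gave 53 of the 55537 gene names in the deposited tables. This choice was made with earlier results of these data known. The cultures came from Id1-/- and from Id1+/+ mice that had received acute myeloid leukaemia 6 weeks earlier. Its driver was MLL-AF9, which joins KMT2A to MLLT3, or AE9a, a shortened RUNX1 and RUNX1T1 fusion. All groups therefore came from leukaemic marrow, and the adherent cells were grown in alpha-MEM with 10% fetal bovine serum before RNA was extracted. The labels number the replicates without naming animals, so p-values measure the spread between libraries, which may be technical. Id1 encodes a helix-loop-helix protein without a DNA-binding region, which holds basic helix-loop-helix transcription factors away from their target sites. The design asks what Id1 in the surrounding tissue does for leukaemia-initiating cells.

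Wnt proteins are secreted lipid-modified ligands that bind a Frizzled receptor. Together with the co-receptor Lrp5 or Lrp6 they stop the Axin complex from degrading beta-catenin, which then acts in the nucleus with Tcf7, Lef1 and their relatives; with Ror receptors they signal without beta-catenin. Sfrp proteins and Wif1 bind the ligands, Dkk1 and Dkk2 block Lrp5 and Lrp6, and R-spondins acting through Lgr receptors keep Frizzled on the cell surface. In marrow the pathway is known for its part in osteoblast formation from mesenchymal cells.

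Genotypes were tested in MLL-AF9, with 2 libraries each and 17864812 to 22510346 counts in a library. In AE9a both columns of a genotype hold the same values shifted by a constant in nearly all genes with counts, so there was 1 usable library per genotype (18126803 counts in Id1-/- and 20967896 in Id1+/+) and no test. Levels are given in CPM, counts set to a common library size with TMM factors. Id1 itself had 226 and 222 counts in MLL-AF9 Id1-/- libraries against 706 and 632 in Id1+/+, and 83 against 383 in AE9a, so reads on the gene remained in the knockout. Mesenchymal transcripts were not the most abundant in these cultures: 12 macrophage markers summed to 23159 to 29622 CPM in the MLL-AF9 libraries, and 15 mesenchymal markers to 3588 and 3889 CPM in Id1-/- and to 838 and 911 CPM in Id1+/+. In bulk RNA, more cells of a type and more RNA per cell cannot be told apart.

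Wnt genes were mostly higher without Id1 in MLL-AF9 stroma. Of the 53 members, 37 had a row in the MLL-AF9 table and 31 had enough counts to be tested; 21 rose, 1 fell and 9 were not called (edgeR, adjusted p under 0.05 over all 14137 genes tested). Over all genes tested 27.8% were called: 17.2% rose and 10.6% fell. The 2 libraries of each genotype did not overlap in 25 members that were higher in Id1-/- and in 4 that were lower, against 33.5% and 31.5% of all genes tested. The median log2 fold was 1.23 over the 31 members tested and 0.00 over all genes tested. Of the 31, 24 had enough counts in both genotypes, and 17 of these 24 were called. A further 5 passed the filter on low counts through Id1-/- libraries only and 2 through Id1+/+ libraries only; this filter favours a difference in such genes, so their calls are descriptions and not support for a change. With each library left out in turn, 17 to 20 members were higher.

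**Figure D1:**
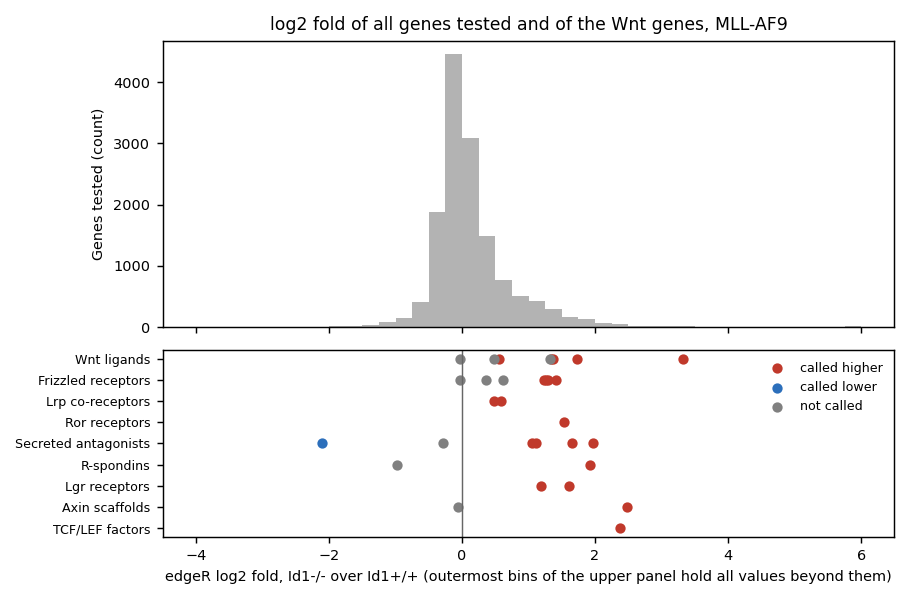
The upper panel counts all genes tested in MLL-AF9 by log2 fold of Id1-/- over Id1+/+ (bins of 0.25), and the lower panel gives the 31 Wnt genes tested by role, coloured by call. The whole distribution is centred near 0 with a median of 0.00, and 21 of the 31 Wnt genes lie to its right as called higher, with Sfrp5 as the call below 0.

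Among the ligands, 5 of the 8 tested rose and none fell. Wnt10b, a ligand known to favour bone over fat formation in marrow, was at 5.32 and 5.03 CPM in Id1-/- against 2.35 and 1.73 in Id1+/+ (log2 fold 1.34, SE 0.24, edgeR adjusted p = 0.000726). Wnt4 was at 7.98 and 6.93 CPM in Id1-/- against 2.84 and 2.92 in Id1+/+ (log2 1.37, SE 0.20, edgeR adjusted p = 0.000117). In both genes the genotypes were well apart. Wnt5b, mostly a ligand of the branch without beta-catenin, was at 3.17 and 2.98 CPM in Id1-/- against 1.03 and 0.822 in Id1+/+ (log2 1.73, edgeR adjusted p = 0.000758). Its relative Wnt5a had the highest level per kilobase of exon of all ligands in each MLL-AF9 library, at 19.9 and 18.8 CPM in Id1-/- against 12 and 14.4 in Id1+/+. That is the smallest called log2 fold among the ligands (0.55, SE 0.13, edgeR adjusted p = 0.00518), and without Id1+/+ replicate 1 it was 0.42 and lost its call (adjusted p = 0.0597). Wnt6, counted among the 5, passed the filter on low counts only through Id1-/- libraries: it had 18 and 11 counts in Id1-/- against 1 and 2 in Id1+/+ (log2 3.32, SE 0.76, edgeR adjusted p = 0.00437), and lost its call without Id1+/+ replicate 1 (adjusted p = 0.0783). The other 3 were tested without a call: Wnt2b (log2 1.3), Wnt11 (0.48) and Wnt9a (-0.02, and 0.087 when scaled by library totals).

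The promoter of Wnt10b is shown because this ligand was higher without Id1 in both models. In AE9a it reached a mean of 1 CPM through the Id1-/- library only. The window covers 250 bases before to 50 after the start site in RefSeq (chr15:98778101-98778400, minus strand, GRCm38.p6), and capitals mark each E-box, CANNTG, the letters that basic helix-loop-helix factors recognise.
Wnt10b: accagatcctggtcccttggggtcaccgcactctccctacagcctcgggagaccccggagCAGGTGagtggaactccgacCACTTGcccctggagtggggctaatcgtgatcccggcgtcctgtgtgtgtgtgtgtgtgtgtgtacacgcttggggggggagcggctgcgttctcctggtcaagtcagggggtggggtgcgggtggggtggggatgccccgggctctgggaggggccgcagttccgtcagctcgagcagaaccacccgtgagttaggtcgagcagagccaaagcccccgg
Several ligand genes lie in neighbouring pairs. Wnt10b and Wnt1 are 11706 bases apart on chromosome 15, and Wnt1 had 1 count in AE9a Id1-/- and 0 in Id1+/+, where Wnt10b had 60 and 18. Wnt6 and Wnt10a are 6193 bases apart on chromosome 1, with 3 and 1 counts in AE9a Id1-/- and 2 and 0 in Id1+/+, too few to tell them apart. On chromosome 11, Wnt9a and Wnt3a are 16175 bases apart, and Wnt3a had 0 counts in both AE9a libraries where Wnt9a had 29 in Id1-/- and 18 in Id1+/+. Wnt9b and Wnt3, 24328 bases apart on the same chromosome, both had 0.

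Of the 7 Frizzled receptors tested, 4 rose: Fzd1, Fzd2, Fzd8 and Fzd3. Fzd1 was at 24.3 and 23.5 CPM in Id1-/- against 9.16 and 10.4 in Id1+/+ (log2 1.28, SE 0.13, edgeR adjusted p = 1.55e-06). Fzd2 was at 11.5 and 10.3 CPM in Id1-/- against 4.56 and 3.65 in Id1+/+ (log2 1.41, SE 0.18, edgeR adjusted p = 2.55e-05). These are the receptors of the group whose genotypes were farthest apart relative to their error. Fzd8 was at 7.88 and 8.88 CPM in Id1-/- against 3.23 and 3.88 in Id1+/+ (log2 1.23, edgeR adjusted p = 0.000209). Fzd3, which passed the filter only through Id1-/- libraries, had 32 and 29 counts in Id1-/- against 18 and 10 in Id1+/+ (log2 1.26, edgeR adjusted p = 0.0344), and lost its call when any library was left out and with DESeq2. Fzd7, which made up most of the Frizzled level, stood at 82.1 and 84.4 CPM in Id1-/- against 84.4 and 85.6 in Id1+/+ (log2 -0.03, SE 0.08, adjusted p = 0.815; 0.081 when scaled by library totals). Fzd4 (log2 0.61) and Fzd5 (0.36) were not called either, although Fzd5 passed with library totals (adjusted p = 0.0222) and with a replicate block (0.042).

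The promoter of Fzd1 is shown because the difference between genotypes in this receptor had opposite signs in MLL-AF9 and AE9a (chr5:4758167-4758466, minus strand, GRCm38.p6, same window and capitals).
Fzd1: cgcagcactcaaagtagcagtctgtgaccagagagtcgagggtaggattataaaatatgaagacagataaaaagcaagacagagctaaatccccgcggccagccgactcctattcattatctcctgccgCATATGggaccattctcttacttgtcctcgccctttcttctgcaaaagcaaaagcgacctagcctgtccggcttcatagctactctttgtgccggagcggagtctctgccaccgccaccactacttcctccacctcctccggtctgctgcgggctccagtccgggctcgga

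Both Lrp co-receptors rose by a small amount. Lrp5 was at 52.3 and 57.1 CPM in Id1-/- against 32.5 and 40.5 in Id1+/+ (log2 0.58, SE 0.11, edgeR adjusted p = 0.000836). Lrp6 was at 66.6 and 66.8 CPM in Id1-/- against 45.5 and 50.3 in Id1+/+ (log2 0.48, SE 0.09, edgeR adjusted p = 0.000915). Ror2, a receptor tyrosine kinase for Wnt5a, changed more, at 4.45 and 5.03 CPM in Id1-/- against 1.37 and 1.87 in Id1+/+ (log2 1.54, SE 0.26, edgeR adjusted p = 0.000422). Its relative Ror1 had 10 and 5 counts in Id1-/- against 1 and 5 in Id1+/+ and was too low to test.

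Among the secreted antagonists 4 of 6 tested rose and 1 fell. Dkk3, a secreted member of the Dickkopf family that, unlike Dkk1, does not bind Lrp5 or Lrp6, had the smallest adjusted p of all Wnt genes. It was at 105 and 118 CPM in Id1-/- against 27.7 and 29.0 in Id1+/+ (111 ± 9.32 against 28.4 ± 0.878, mean ± SD, n = 2 each; log2 1.97, SE 0.09, edgeR adjusted p = 7.68e-10). Sfrp1, a decoy that binds Wnt ligands, was at 13.3 and 15.3 CPM in Id1-/- against 5.0 and 4.11 in Id1+/+ (log2 1.65, SE 0.17, edgeR adjusted p = 2.25e-06). Sfrp4 was at 19.5 and 20.2 CPM in Id1-/- against 8.67 and 9.68 in Id1+/+ (log2 1.11, SE 0.13, edgeR adjusted p = 1.07e-05). Sfrp2 was at 4.14 and 3.57 CPM in Id1-/- against 1.86 and 1.87 in Id1+/+ (log2 1.05, edgeR adjusted p = 0.00731). The 3 Sfrp genes thus moved the same way, with genotypes that did not overlap, though Sfrp2 lost its call without Id1-/- replicate 1 (adjusted p = 0.0709). Sfrp5, which passed the filter only through Id1+/+ libraries, went the other way, with 3 and 6 counts in Id1-/- against 29 and 15 in Id1+/+ (log2 -2.11, SE 0.61, edgeR adjusted p = 0.0163). That call was lost with DESeq2 (adjusted p = 0.0731), without Id1-/- replicate 1 (0.166) and without Id1+/+ replicate 1 (0.299). Dkk2 was at 9.36 and 11.3 CPM in Id1-/- against 12.8 and 12.3 in Id1+/+ and was not called (log2 -0.28, adjusted p = 0.164).

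The R-spondin Rspo2 and both Lgr receptors tested rose. Rspo2 was at 13.8 and 16.3 CPM in Id1-/- against 4.31 and 3.65 in Id1+/+ (log2 1.92, SE 0.17, edgeR adjusted p = 4.74e-07). Lgr6, an R-spondin receptor, was at 50.9 and 55.2 CPM in Id1-/- against 17.4 and 17.6 in Id1+/+ (53.0 ± 3.01 against 17.5 ± 0.122, mean ± SD, n = 2 each; log2 1.60, SE 0.10, edgeR adjusted p = 9.58e-09). Lgr4 was at 7.42 and 7.90 CPM in Id1-/- against 3.23 and 3.47 in Id1+/+ (log2 1.19, SE 0.19, edgeR adjusted p = 0.000288). A ligand and its receptors were therefore higher in the same libraries. Rspo3 had 8 and 12 counts in Id1-/- against 25 and 19 in Id1+/+ and was not called (log2 -0.98, SE 0.48, adjusted p = 0.14).

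The promoter of Lgr6 is shown as that of the receptor with the smallest adjusted p (chr1:135105227-135105526, minus strand, GRCm38.p6, same window and capitals).
Lgr6: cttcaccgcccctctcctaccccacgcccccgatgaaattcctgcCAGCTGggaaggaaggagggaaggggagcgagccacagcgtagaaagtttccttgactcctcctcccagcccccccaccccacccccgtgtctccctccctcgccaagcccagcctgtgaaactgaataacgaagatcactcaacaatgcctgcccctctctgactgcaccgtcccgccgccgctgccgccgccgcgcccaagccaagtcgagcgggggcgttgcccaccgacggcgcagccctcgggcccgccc
The gene itself spans 134983301 to 135105276 on the minus strand of chromosome 1 in GENCODE M21, with 20 merged exons.

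Axin2 and Tcf7, both known to be induced by beta-catenin in many tissues, rose from very low counts. Axin2 had 12 and 14 counts in Id1-/- against 1 and 4 in Id1+/+ (log2 2.48, SE 0.72, edgeR adjusted p = 0.0174). Tcf7 had 23 and 29 counts in Id1-/- against 5 and 6 in Id1+/+ (log2 2.37, SE 0.50, edgeR adjusted p = 0.00238). Both passed the filter on low counts only through Id1-/- libraries. Axin2 lost its call with DESeq2 (adjusted p = 0.102) and when any library but Id1+/+ replicate 2 was left out. Axin1, the Axin that cells make without Wnt signals, was at 59.0 and 66.7 CPM in Id1-/- against 63.3 and 67.4 in Id1+/+ (log2 -0.06, adjusted p = 0.693; 0.055 with library totals). Lef1 had 9 and 5 counts in Id1-/- against 1 and 1 in Id1+/+ and was not tested.

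**Figure D2:**
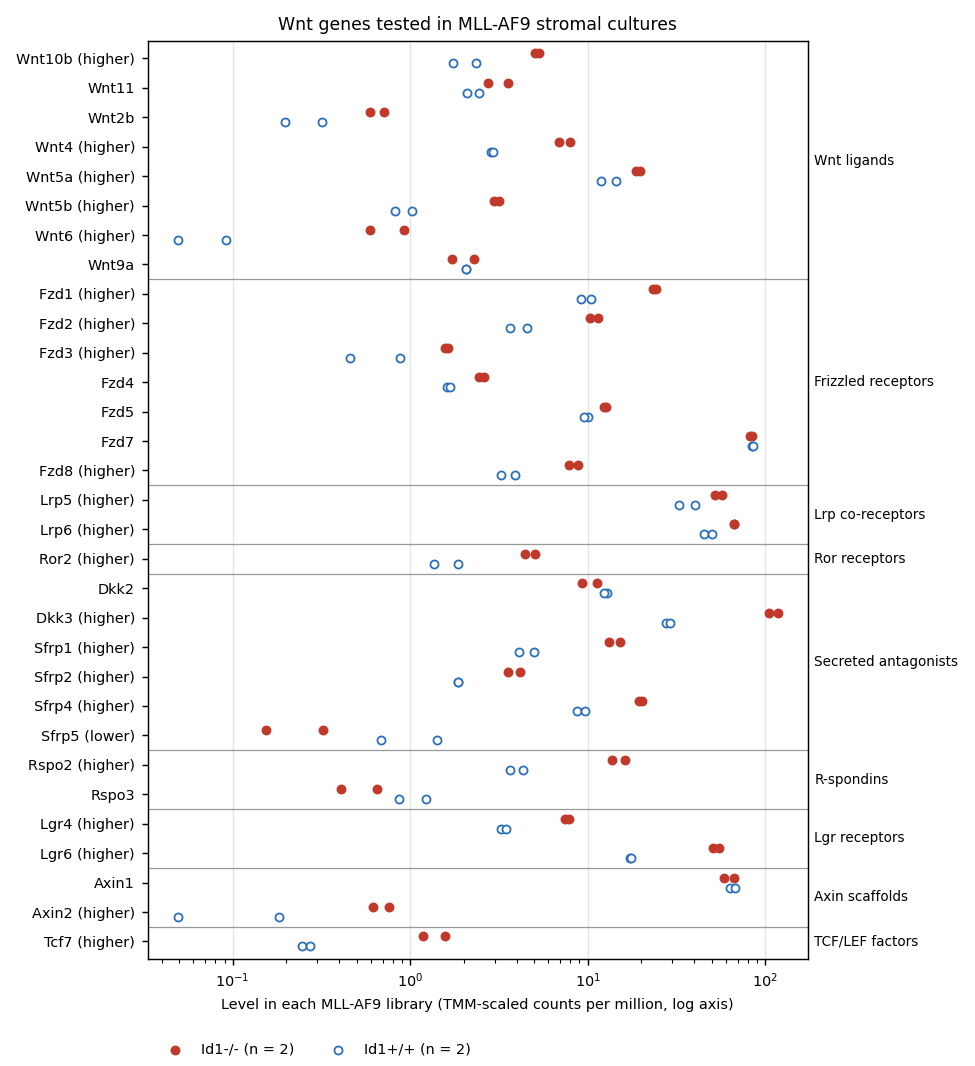
Level of each of the 31 tested Wnt genes in every MLL-AF9 library (TMM-scaled CPM, log axis), with filled points for Id1-/- and open points for Id1+/+ (2 libraries each) and genes grouped by role. Dkk3, Lgr6, Rspo2 and Sfrp1 have log2 folds of 1.60 to 1.97 with no overlap between genotypes, while Fzd7 and Axin1 stand at like levels in all 4 libraries.

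Further members were near the detection limit. Wnt7b (2 and 6 counts in Id1-/- against 8 and 7 in Id1+/+), Fzd6 (13 and 8 against 2 and 1), Wif1 (13 and 7 against 2 and 2) and Rspo1 (2 and 3 against 1 and 3) had MLL-AF9 rows but were too low to test. Another 16 had no row in that table and were read in AE9a only. Of these, Wnt3, Wnt3a, Wnt7a, Wnt8a, Wnt8b, Wnt9b, Dkk4 and Rspo4 had 0 counts in both AE9a libraries, which allows up to 0.155 CPM in Id1-/- and 0.153 CPM in Id1+/+ (3 counts of each library). Wnt1, Wnt2, Wnt10a, Wnt16, Fzd9, Fzd10, Dkk1 and Lgr5 had at most 6 counts in a library. At this depth they were at or near the limit, which does not show that they are absent.

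In AE9a stroma most Wnt genes that could be read were also higher without Id1. Of 22 members with a mean of at least 1 CPM, 14 were at least 2-fold higher in the Id1-/- library and none was at least 2-fold lower, against 11.9% and 1.7% of the 12730 genes read at that level. The median log2 ratio was 1.57 over these members and -0.01 over all genes. Among the 14, Sfrp2 (0.358 CPM), Wnt11 (0.511), Wnt10b, Fzd2 and Fzd8 (0.920 each) were below 1 CPM in Id1+/+. They reached the mean through the Id1-/- library only. The minimum favours a difference in such genes, so their ratios are descriptions and not support for a change. With a minimum of 5 CPM, 7 members were at least 2-fold higher. The share of all genes at that minimum was not computed, so this count has no comparison. Each value is 1 library per genotype, and its interval covers counting error only. Sfrp4 had 203 counts in Id1-/- against 23 in Id1+/+, a ratio of 8.90 (95% interval 5.77 to 14.4). Sfrp1 had 178 counts in Id1-/- against 22 in Id1+/+, a ratio of 8.16 (5.23 to 13.4). Sfrp2 had 42 counts in Id1-/- against 7 in Id1+/+, a ratio of 6.05 (2.69 to 16.0), under the limit given above. Sfrp4 and Sfrp1, which rose in MLL-AF9, were over 2-fold higher here too and had the highest ratios at this level. Wnt5a had 324 counts in Id1-/- against 50 in Id1+/+, a ratio of 6.54 (4.84 to 8.99). Lgr6 had 755 counts in Id1-/- against 120 in Id1+/+, a ratio of 6.35 (5.23 to 7.76). Dkk3 had 218 counts in Id1-/- against 35 in Id1+/+, a ratio of 6.28 (4.38 to 9.25). These are a ligand, an R-spondin receptor and a secreted Dickkopf protein. Rspo2 had 241 counts in Id1-/- against 57 in Id1+/+, a ratio of 4.26 (3.18 to 5.80). Lgr4 had 214 counts in Id1-/- against 82 in Id1+/+, a ratio of 2.63 (2.03 to 3.44). The R-spondin and both of its receptors were thus higher in this model as well. Fzd2 had 97 counts in Id1-/- against 18 in Id1+/+ (ratio 5.44, 3.26 to 9.55), Fzd8 had 66 against 18 (3.70, 2.17 to 6.62) and Fzd4 had 100 against 49 (2.06, 1.45 to 2.96). Wnt10b had 60 counts in Id1-/- against 18 in Id1+/+ (ratio 3.36, 1.96 to 6.05), and Wnt11, a ligand mostly of the branch without beta-catenin, had 43 against 10 (4.34, 2.15 to 9.68). Ror2 had 50 counts in Id1-/- against 25 in Id1+/+ (ratio 2.02, 1.22 to 3.40). Fzd4 and Wnt11, not called in MLL-AF9, were among the genes past 2-fold here. Fzd5 was 1.53-fold higher (1.27 to 1.84). The intervals of Wnt9a and Dkk2 included 1. Below a mean of 1 CPM the intervals were wide. Wnt5b had 24 counts in Id1-/- against 3 in Id1+/+ (ratio 8.07, 2.45 to 41.9), Wnt4 had 12 against 2 (6.05, 1.35 to 55.7) and Rspo3 had 23 against 3 (7.73, 2.34 to 40.2). Fzd3 had 31 counts in Id1-/- against 4 in Id1+/+ (ratio 7.82, 2.76 to 30.5), Fzd6 had 23 against 6 (3.87, 1.53 to 11.6) and Tcf7 had 17 against 5 (3.43, 1.21 to 11.9). The interval of Wnt2b included 1. Axin2 had 3 counts in each library.

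Fzd1, Fzd7, Axin1, Lrp5 and Lrp6 did not follow this in AE9a. Fzd1 was lower without Id1, with 575 counts in Id1-/- against 832 in Id1+/+, a ratio of 0.697 (0.626 to 0.776). Fzd7 had a ratio of 0.882 (0.822 to 0.945) and Axin1 one of 0.887 (0.812 to 0.969), and both were just above 1 with library totals (log2 0.016 for Fzd7 and 0.025 for Axin1). Lrp5 had 739 counts in Id1-/- against 746 in Id1+/+ (ratio 0.999, 0.901 to 1.11), and Lrp6 had 2408 against 2463 (0.986, 0.932 to 1.04).

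The models were compared gene by gene with the interaction of model and genotype in a joint edgeR fit of 6 libraries, in which the spread of the AE9a libraries is assumed to equal that in MLL-AF9. Of 34 members in that fit 8 were called, against 10.3% of all 15110 genes in it. Fzd1 differed most clearly, with a log2 fold of Id1-/- over Id1+/+ that was 1.90 greater in MLL-AF9 than in AE9a (SE 0.18, adjusted p = 2.12e-05). Lrp5 (0.67, adjusted p = 0.0354) and Lrp6 (0.59, adjusted p = 0.0201) also had a greater log2 fold in MLL-AF9. Wnt5a (-2.06, adjusted p = 0.000286), Sfrp4 (-1.94, adjusted p = 0.00151), Lgr6 (-0.97, adjusted p = 0.00575) and Sfrp1 (-1.29, adjusted p = 0.0375) were more raised in AE9a. Rspo3 (-3.79, adjusted p = 0.0304) was higher in AE9a Id1-/- and, without a call, lower in MLL-AF9 Id1-/-. Of the 15 members that rose in MLL-AF9 and had at least 1 CPM in AE9a, 12 were at least 2-fold higher in AE9a; the other 3 were Fzd1, Lrp5 and Lrp6. Among all 2130 genes that rose and were read at that level the share was 43.7%. Of the 12, Wnt10b, Fzd2, Fzd8 and Sfrp2 reached that level through the AE9a Id1-/- library only. In the same fit most mesenchymal markers also had a greater log2 fold in AE9a, such as Prrx1 (-0.98), Pdgfrb (-1.05), Pdgfra (-1.25) and Dcn (-1.96). Cxcl12 (0.63), Col1a1 (0.27) and Col1a2 (0.09) went the other way. Of the 8 interaction calls, 5 were left without Id1-/- replicate 2 and 4 without Id1+/+ replicate 1, and with library totals Lrp5 and Lrp6 lost theirs (adjusted p = 0.187 and 0.145). Sfrp1 lost its call without any one library but Id1+/+ replicate 2 (adjusted p = 0.0536 to 0.079), and Rspo3 without Id1-/- replicate 1 (0.0556) or Id1+/+ replicate 1 (0.0701).

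**Figure D3:**
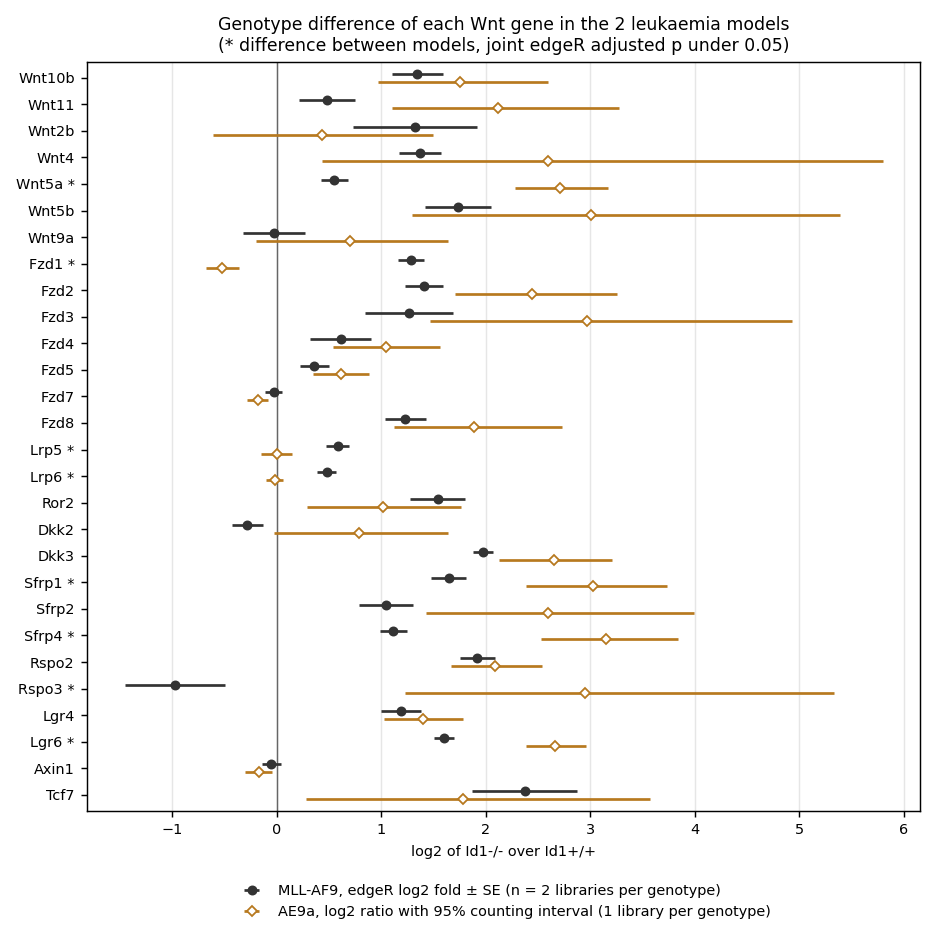
log2 of Id1-/- over Id1+/+ for Wnt genes tested in MLL-AF9 (filled points, ± SE, 2 libraries per genotype) that had at least 10 counts in AE9a (open diamonds, 95% counting interval, 1 library per genotype). Fzd1 lies above 0 in MLL-AF9 and below 0 in AE9a, and Wnt5a, Sfrp4, Sfrp1 and Lgr6 lie farther to the right in AE9a; an asterisk marks the 8 genes whose difference between models was called.

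Within each family the make-up of the RNA was compared per kilobase of exon, as shares of the family in each library. Dkk3 made up 71.3% and 72.4% of the antagonist level in MLL-AF9 Id1-/- against 49.8% and 52.4% in Id1+/+, and 34.9% against 31.3% in AE9a. Dkk2 made up 5.79% and 6.30% in MLL-AF9 Id1-/- against 20.8% and 20.2% in Id1+/+, and 5.23% against 17% in AE9a. The Id1-/- libraries of both models thus held a smaller share of Dkk2. Its level in AE9a was not lower, with 36 counts in Id1-/- against 21 in Id1+/+ (ratio 1.73, 0.983 to 3.12). Fzd7 made up 58.9% and 60.1% of the Frizzled level in MLL-AF9 Id1-/- against 76.4% and 76.5% in Id1+/+, and 58.0% against 61.1% in AE9a. Wnt5a made up 27.1% and 28.9% of the ligand level in MLL-AF9 Id1-/- against 32.9% and 39.4% in Id1+/+, but 42.3% against 24.5% in AE9a. Rspo2 made up 93.6% and 91.6% of the R-spondin level in MLL-AF9 Id1-/- against 66.7% and 67.0% in Id1+/+, and 86.4% against 92.0% in AE9a. The share of Wnt5a thus shifted in opposite directions in the models. That of Rspo2 did so in value only. Its AE9a shares rest on 23 counts of Rspo3 in Id1-/- and 3 in Id1+/+, beside 241 and 57 of Rspo2. The summed antagonist level was 43.7 and 48.5 CPM per kilobase in MLL-AF9 Id1-/- against 16.6 and 16.5 in Id1+/+, and 9.58 against 1.70 in AE9a. Of this, Dkk3 alone held 31.2 and 35.1 in MLL-AF9 Id1-/- against 8.26 and 8.63 in Id1+/+, and 3.35 against 0.532 in AE9a. Because Dkk3 does not bind Lrp5 or Lrp6, the sum does not measure how much Wnt signals were blocked. These shares are descriptions without a test, and set AE9a single libraries beside MLL-AF9 ones from another table.

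**Figure D4:**
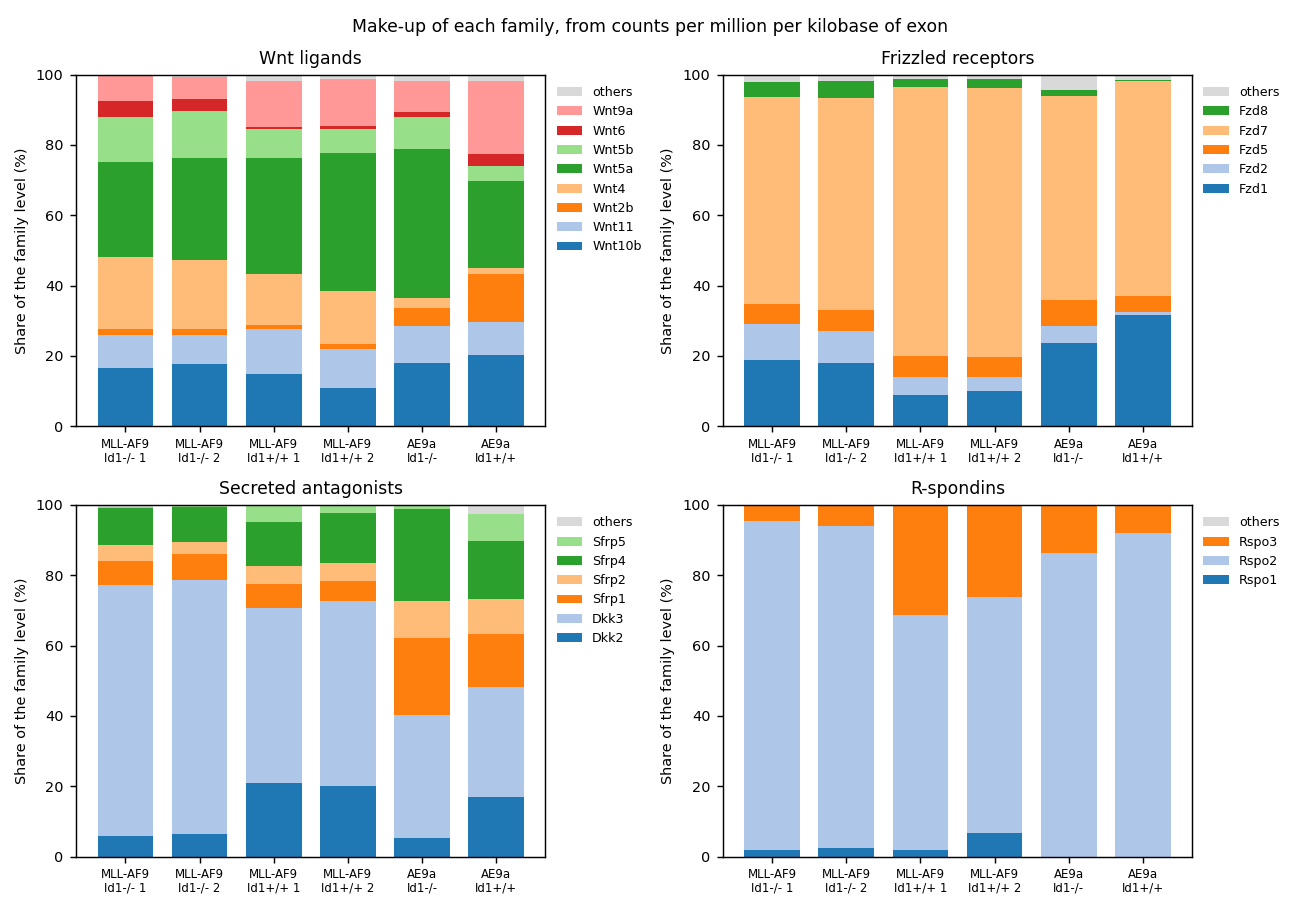
Share of each gene in the level of its family (CPM per kilobase of merged exon, %) in each library, Id1-/- left of Id1+/+ within a model; genes below 3% in all libraries are pooled as others. Dkk3 fills most of the antagonist bar in MLL-AF9 Id1-/-, Fzd7 most of every Frizzled bar and Rspo2 most of every R-spondin bar.

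Beyond the ligands and receptors, 71 other genes of the pathway were read, of which 60 were tested in MLL-AF9. Of these 31 rose and 2 fell, against 17.2% and 10.6% of all genes tested. Their median log2 fold was 0.41. Without Id1-/- replicate 2 there were 20 higher, and without Id1+/+ replicate 1 there were 19; the count lower was 1 without either Id1-/- library and 4 without Id1+/+ replicate 2. Of the core machinery 11 of 24 rose and 1 fell. Among them Bcl9l, a beta-catenin co-activator, was at 26.7 and 31.6 CPM in Id1-/- against 12.6 and 12.6 in Id1+/+ (log2 1.21, edgeR adjusted p = 2.1e-06). The corepressor Tle3 rose too (log2 0.51), but in AE9a it was lower in Id1-/- (1596 counts against 2169 in Id1+/+, ratio 0.742, 0.695 to 0.792), and this difference between the models was called (interaction adjusted p = 0.000984). The co-activator Pygo1 (2.26) passed the filter only through Id1-/- libraries and was not called without Id1-/- replicate 1 or Id1+/+ replicate 1. The gene that fell was Ctnnbip1, an inhibitor of beta-catenin (-0.41). Ctnnb1, which encodes beta-catenin, was at 475 and 470 CPM in Id1-/- against 408 and 439 in Id1+/+ and was not called (0.16, adjusted p = 0.139). In AE9a it had a ratio of 0.606 (0.594 to 0.620), and the difference between the models was called (interaction adjusted p = 0.000473). Of the genes for secretion, uptake and turnover 6 of 11 rose, with Cthrc1 at log2 1.63 and the glypicans Gpc4 and Gpc6 at 1.31 and 1.63. Of the branch without beta-catenin 7 of 13 rose, with the Wnt receptors Ryk at 1.15 and Ptk7 at 1.03 and the formin Daam2 at 1.23. Of the genes often induced by beta-catenin 7 of 12 rose and 1 fell (Id2, -0.54). Ccn5 led these at 81.1 and 87.5 CPM in Id1-/- against 16.5 and 14.6 in Id1+/+ (log2 2.44, edgeR adjusted p = 1.58e-10), with Twist1 at 1.49 and Ccn4 at 1.40. In AE9a, 58 of the other pathway genes had a mean of at least 1 CPM. Of these 18 were at least 2-fold higher and 1 lower, against 11.9% and 1.7% of all genes read. The 23 core machinery genes among them had 1 at least 2-fold higher and 1 lower. Their median log2 ratio was -0.06, with 5 intervals above 1 and 10 below.

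Markers of mesenchymal cells moved with the Wnt genes. In MLL-AF9, 10 of 15 mesenchymal markers rose and 1 fell (Cxcl12), with a median log2 fold of 1.05. Prrx1, a mesenchymal transcription factor, was at 89.1 and 93.8 CPM in Id1-/- against 33.7 and 34.7 in Id1+/+ (log2 1.42). In AE9a, Prrx1 was 5.60-fold higher in Id1-/- (95% interval 4.88 to 6.45) and the pericyte and fibroblast receptor Pdgfrb 4.61-fold higher (4.04 to 5.29). The summed level of the 15 mesenchymal markers was 1174 CPM in AE9a Id1-/- against 302 CPM in Id1+/+, and 9 of the 12 with a mean of at least 1 CPM were at least 2-fold higher. Cxcl12, a chemokine that holds blood stem cells in marrow, was the 1 at least 2-fold lower, with 378 counts in AE9a Id1-/- against 1346 in Id1+/+ (ratio 0.283, 0.252 to 0.318). Lum was at 0 in AE9a Id1+/+. The smooth muscle and pericyte list summed to 1159 and 1207 CPM in MLL-AF9 Id1-/- against 550 and 517 in Id1+/+, and to 430 against 125 in AE9a. Of 6 osteoblast markers tested 4 rose and 1 fell (Spp1). With Spp1 the list summed to 6742 and 6670.1 CPM in MLL-AF9 Id1-/- against 10889 and 10206 in Id1+/+, and to 2084 against 3221 in AE9a. Without Spp1, left out after the data were seen, the direction turned. The sum was then 1409 and 1529.8 CPM in MLL-AF9 Id1-/- against 550.4 and 548 in Id1+/+, and 517 against 136 in AE9a. Most of it was 1 gene, Sparc. Its level was 1273 and 1386 CPM in MLL-AF9 Id1-/- against 480 and 482 in Id1+/+, and 483 against 112 in AE9a. Bglap, which marks mature osteoblasts, had no MLL-AF9 row. Of 12 macrophage markers 3 rose and 7 fell, and the list summed to 23750.1 and 23159 CPM in MLL-AF9 Id1-/- against 29622 and 26731 in Id1+/+, and to 27249 against 36064 in AE9a. Of 7 neutrophil markers tested 6 fell and none rose, and the list summed to 158 and 156 CPM in MLL-AF9 Id1-/- against 326 and 265 in Id1+/+, and to 22 against 10.6 in AE9a. Erythroid markers were at 0.665 and 0.596 CPM in MLL-AF9 Id1-/- against 1.62 and 1.87 in Id1+/+, and at 107 against 24.1 in AE9a. Endothelial markers summed to 26.1 to 33.7 CPM in the 6 libraries, with Tek and Emcn without an MLL-AF9 row, chondrocyte markers to 27.6 and 30.0 in MLL-AF9 Id1-/- against 9.02 and 10.0 in Id1+/+ and to 26.1 against 5.01 in AE9a, and B cell markers to 67.0 and 50.9 in MLL-AF9 Id1-/- against 31.1 and 31.7 in Id1+/+, with Ms4a1 at 0 in AE9a. The T and NK cell list was at 2.01 CPM or less in every library. The part of any of these in the Wnt values was not tested.

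**Figure D5:**
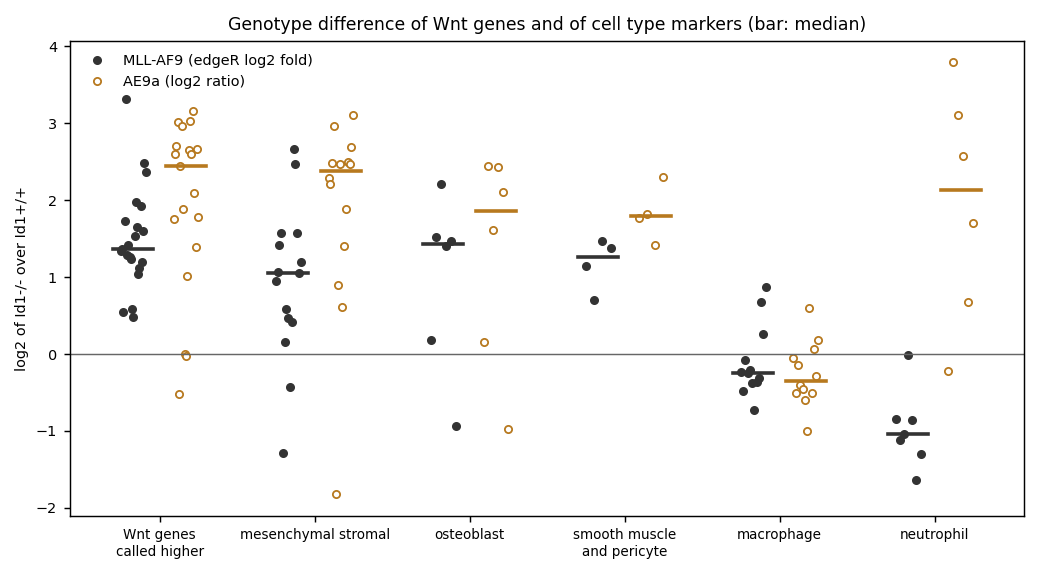
log2 of Id1-/- over Id1+/+ for the 21 Wnt genes called higher in MLL-AF9 and for marker lists, in MLL-AF9 (filled) and, for genes with at least 10 counts, in AE9a (open), with medians as bars. The first column was chosen by its MLL-AF9 values and is a description; mesenchymal, osteoblast and smooth muscle markers lie mostly above 0 in both models and macrophage markers mostly below, while neutrophil markers lie mostly below in MLL-AF9 and mostly above in AE9a.

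The promoters of 35 of the 53 genes matched the RefSeq table, with 42 start sites. An E-box (CANNTG, its own reverse complement) was found in 29 of these 42 windows, 69.0%, and in 72.3% of 32851 promoter windows of the same length. The letters CTTTGAT on either strand, a TCF and LEF motif, were found in 2 of the 42, at a start site of Wnt11 and at one of Wnt5b, and in 3.73% of all windows. The printed windows hold 2 E-boxes in Wnt10b, 1 in Fzd1 and 1 in Lgr6, and none has CTTTGAT. Dkk3, Sfrp1 and Rspo2 had no entry. Exons of 9 members overlap a gene on the other strand, over 17.8% of exon bases in Fzd5, 16.1% in Sfrp2, 13.7% in Lef1 and 13.1% in Rspo3, and less in Wnt11, Wnt7b, Wnt5a, Axin2 and Fzd6. The strand setting is not given in the sources used here, so reads of these pairs may not be told apart.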

How the data were processed

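RNA was sequenced from adherent stromal cultures of mouse bone marrow and bone with the TruSeq RNA kit on a NovaSeq6000, per the labels' protocols. Tools listed in the submitters' processing notes are HISAT2 2.2.1, fastp 0.22.0, DESeq2 1.32.0 and featureCounts 2.0.1, with the build mm10; the strand setting and annotation release are not given in the sources used here. The deposited values are raw counts per gene, in one table per leukaemia model, apart from the AE9a columns left out. Each of those holds the other column of its genotype plus a constant in nearly all genes with counts. The 4 MLL-AF9 libraries were tested with edgeR 4.0.16 (R 4.3.3; filterByExpr with a minimum count of 10, TMM, quasi-likelihood test, Benjamini-Hochberg over 14137 genes). In AE9a, 1 library per genotype was compared as a ratio of TMM-scaled counts with a 95% exact binomial interval, which covers counting error only. A joint fit of 6 libraries gave the interaction. Alternatives used DESeq2 1.42.0, limma 3.58.1, other scalings and filters, and left out each library. The fit was tested on simulated data. Pathway genes named are the 3 with the smallest adjusted p among those called in each list, besides those that fell and Ctnnb1, which were chosen after their values were seen, as were the marker genes given singly. Members and lists were chosen with earlier results of these data known. Exon lengths and positions are from GENCODE M21 (mm10) and promoters from RefSeq.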

Additional observations from a re-analysis of the deposited data

Results flagged for a closer look

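In 8 Wnt genes the log2 difference between Id1-/- and Id1+/+ itself differed between the leukaemia models (MLL-AF9 minus AE9a, joint edgeR fit, adjusted p under 0.05). It was greater in MLL-AF9 for Fzd1 (1.90), Lrp5 (0.67) and Lrp6 (0.59), and greater in AE9a for Wnt5a (-2.06), Sfrp4 (-1.94), Lgr6 (-0.97), Sfrp1 (-1.29) and Rspo3 (-3.79). The Rspo3 value rests on at most 25 counts in a library. A greater difference in AE9a was not particular to Wnt genes, as most mesenchymal markers had it too. With a library left out, Sfrp1 missed the threshold in 3 of 4 fits, and Rspo3, Lrp5 and Lrp6 in 2 each.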

How the results depend on the processing

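Of the 31 tested members, all kept direction and call with DESeq2 size factors, no low-count filter, a stricter filter and limma-voom. No member was lower with DESeq2 (0, against 1), nor in the leave-one-out fits at their lowest (0 to 1). Other pathway genes higher ranged from 19 to 27 with a library left out (31 with all), and those lower from 1 to 4 (2 with all); lower were 1 with library totals and 7 with a replicate block. The replicate numbers correlated at 0.114 over 2 pairs and share only a number; the block gave 23 members called, adding Fzd5. AE9a members past 2-fold were 7 at a minimum of 5 CPM and 20 with no minimum (14 at 1 CPM). The share of all genes was computed at 1 CPM only. Interaction calls ranged from 4 to 8 with a library left out. Library totals moved the median of all genes to 0.11 in MLL-AF9 and all AE9a log2 ratios by 0.20, which turned Wnt9a (0.087), Fzd7 (0.081) and Axin1 (0.055) in MLL-AF9 and Fzd7 (0.016) and Axin1 (0.025) in AE9a, all near 0. With a library left out, Wnt9a ranged from -0.25 to 0.16 and Axin1 from -0.15 to 0.026. The cause was not tested in the other cases. Low counts limit Wnt6, Axin2, Tcf7, Sfrp5 and Rspo3, and AE9a has no replicate check.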
